A study of Mus musculus with 2 samples.

Results

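The 56 genes described here encode the enzymes of glycolysis, lactate formation, pyruvate entry into mitochondria, gluconeogenesis, the glycerol phosphate step, glycogen synthesis, the citrate cycle and the pentose phosphate pathway. They were listed by gene symbol, current or older, and the muscle forms of enolase, phosphoglycerate mutase and phosphorylase were left out of the list. A probe set is a group of short oligonucleotides on the array that reads part of a transcript. Of the 56 members, 53 had a probe set annotated to a single gene, among 12394 such genes on the array, and they were read by 101 probe sets. Gpi1 (glucose phosphate isomerase), Eno1 (the common enolase) and G6pdx (glucose 6-phosphate dehydrogenase, the entry enzyme of the pentose phosphate pathway) were not analysed here because no probe set was annotated to them alone.

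The samples were mammary tumors of female FVB wild-type mice, 5 weeks old when treatment started according to the methods. All mice received 15 mg medroxyprogesterone acetate, a long-acting progestin, by injection under the skin and then 4 doses of 1 mg DMBA, a carcinogen, by gavage. The control group stayed on standard rodent chow, and the other group received chow with 0.1% GW9662, an irreversible antagonist of the nuclear receptor PPARγ, from the day after the last DMBA dose. RNA of 5 mice per group was pooled and hybridized to 1 array, which gave 1 signal intensity per probe set and diet. The comparison asks how a PPARγ antagonist in the diet goes with the expression of metabolic genes in the tumors.

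With 1 pooled array per diet there is no measure of the spread between mice or tumors, no test could be made, and every value below is a description of these 2 arrays. Where a gene had several probe sets, their log2 ratios (GW9662 over control) scattered with an SD of 0.36 (1.28-fold) over 2641 genes, and this is the only error that the data hold. Olfactory receptor probe sets, which tumors should not light up, reached at most 25.8 on either array. A signal of 100, above that level, was used as a floor. A fold against a signal below it is given as a bound, and no fold is given where both signals were below it. Signals are given for the control array first and the GW9662 array second. Luminal keratin Krt8 (9496 and 9665) and the epithelial adhesion molecule Epcam (6757 and 7580.4) were far above the floor on both arrays. The 3 probe sets for 18S ribosomal RNA were 3.47-fold to 7.49-fold lower on the GW9662 array.

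Cells split glucose to pyruvate in the cytosol, and either reduce it to lactate or pass it to mitochondria, where pyruvate dehydrogenase makes acetyl-CoA for the citrate cycle. Side branches store glucose as glycogen, or use it to make ribose and NADPH in the pentose phosphate pathway. In fat cells, part of this network serves fat storage. Pyruvate carboxylase and PEP carboxykinase lead back from pyruvate toward glycerol phosphate, the backbone of triglycerides, and cytosolic malic enzyme supplies NADPH for fatty acid synthesis. Several steps are run by isozymes, separate genes for the same reaction, whose use differs between tissues.

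Transcription of these genes is read from promoters that differ in make-up, and the stretches below are shown because they belong to members that stood far apart between the diets (Pck1, Pcx, Hk2) and to a member of the main glycolytic chain that did not (Ldha). They come from RefSeq on the mouse build GRCm38.p6 and run 5′ to 3′ on the strand of the gene. Capitals mark ACGTG or GCGTG, the core of hypoxia response elements, on either strand (read as CACGT or CACGC where it lies on the opposite strand). They also mark CACGTG, the E box, which holds ACGTG on both strands. The Pcx stretch lies farther from its start than the other stretches and holds CACGTG. Bases -100 to -1 of Pcx held no capitals at either start. Me1, which also stood far apart, is not shown.
Pck1, bases -100 to -1 before the start, chr2:173152973-173153072, plus strand: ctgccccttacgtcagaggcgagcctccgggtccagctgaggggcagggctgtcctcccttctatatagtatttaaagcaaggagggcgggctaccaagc
Pcx, bases -250 to -151 before the more upstream of 2 starts, chr19:4510222-4510321, plus strand: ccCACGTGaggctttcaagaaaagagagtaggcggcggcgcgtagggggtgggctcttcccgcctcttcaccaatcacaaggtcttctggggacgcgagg
Hk2, bases -100 to -1 before the start, chr6:82774455-82774554, minus strand: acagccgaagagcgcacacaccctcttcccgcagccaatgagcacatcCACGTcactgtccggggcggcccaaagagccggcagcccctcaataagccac
Ldha, bases -100 to -1 before the more upstream of 2 starts, chr7:46845704-46845803, plus strand: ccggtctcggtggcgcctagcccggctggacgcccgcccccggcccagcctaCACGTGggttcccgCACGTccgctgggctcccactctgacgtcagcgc

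Windows from 250 bases before to 50 bases after a start were held for 52 of the 56 members, 75 windows in all (none for Gys2, Gpd1, Idh3a and Me2). ACGTG or GCGTG stood in 53 of the 75 windows (70.7%), against 43.8% of all 32851 windows, and CACGTG in 8 (10.7%), against 7.15%. Windows of one gene are not independent, and Ogdh alone held CACGTG at several starts. By gene, ACGTG or GCGTG stood in 40 of the 52 members and CACGTG in 6. Shares by gene over all genes were not computed. A direct repeat of AGGTCA, or of AGGNCA, with 1 base between the copies, the element bound by PPARs with RXR, was in 0 of the 75 windows on either strand, against 0.0396% and 0.381% of all windows. These counts describe letters in the windows and not binding. For the direct repeats, the share over all windows is so small that 0 of 75 windows cannot show a lack among members. The windows also reach only 250 bases before a start. In its list of metabolic genes, the study marks Pck1, Gys2, Gpd1 and Me1 as holding PPAR response elements.

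Members were mostly somewhat lower in GW9662 tumors, and a few were far lower, with none far higher. Of the 50 members with a mean signal of at least 100, 39 were lower in GW9662 tumors and 11 were higher. Their median log2 ratio was -0.29, against 0.03 over all 8010 genes with that signal, of which 47.1% were lower. Of the members, 58% lay within the SD of 0.36 between probe sets, against 63.3% of all genes. The 3 other measured members, Eno2 (93.3 and 88.6), Pdk2 (83.5 and 47.7) and Fbp2 (38.2 and 16.5), were below the floor on both arrays, so no order was read from them.

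Counted by the thresholds of the study's methods, 300 or more signal units on either array and a 3-fold difference, 4 of the 47 members that reached this signal were lower (8.51%), against 2.68% of the 6054 genes that reached it. These were Pck1, Pcx, Gpd1 and Me1. When each gene was read as the median over all its probe sets, dim ones included, only Me1 passed both thresholds. Pck1, Pcx and Gpd1 then missed the signal of 300. Their log2 ratios in that setting were -0.07 for Pck1, -2.28 for Pcx and -0.30 for Gpd1, so Pcx was still past 3-fold. At 2-fold, 8 members were lower (17.0%), against 4.67% of all genes, and Hk2, Pdk4, Gpd2 and Gbe1 joined the list. At 1.5-fold, 11 members were lower (23.4%), against 9.8% of all genes, with Pgm1, Idh1 and Taldo1 added. In the other direction 0 members passed 3-fold, 2-fold or 1.5-fold, where 0.215%, 1.02% and 6.41% of all genes did. Hk2, Pcx, Pck1, Gpd1, Gys2, Gbe1 and Me1 are also in the study's list of metabolic genes. The study drew it up from these same arrays, so that their direction is not independent evidence. That list uses a threshold below 3-fold, and its signals for these genes differ from those used here. Of the members that reached 300 and differed less than 2-fold, 29 were lower and 10 were higher, with a median log2 ratio of -0.23 and a range from -0.75 to 0.53.

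**Figure D1:**
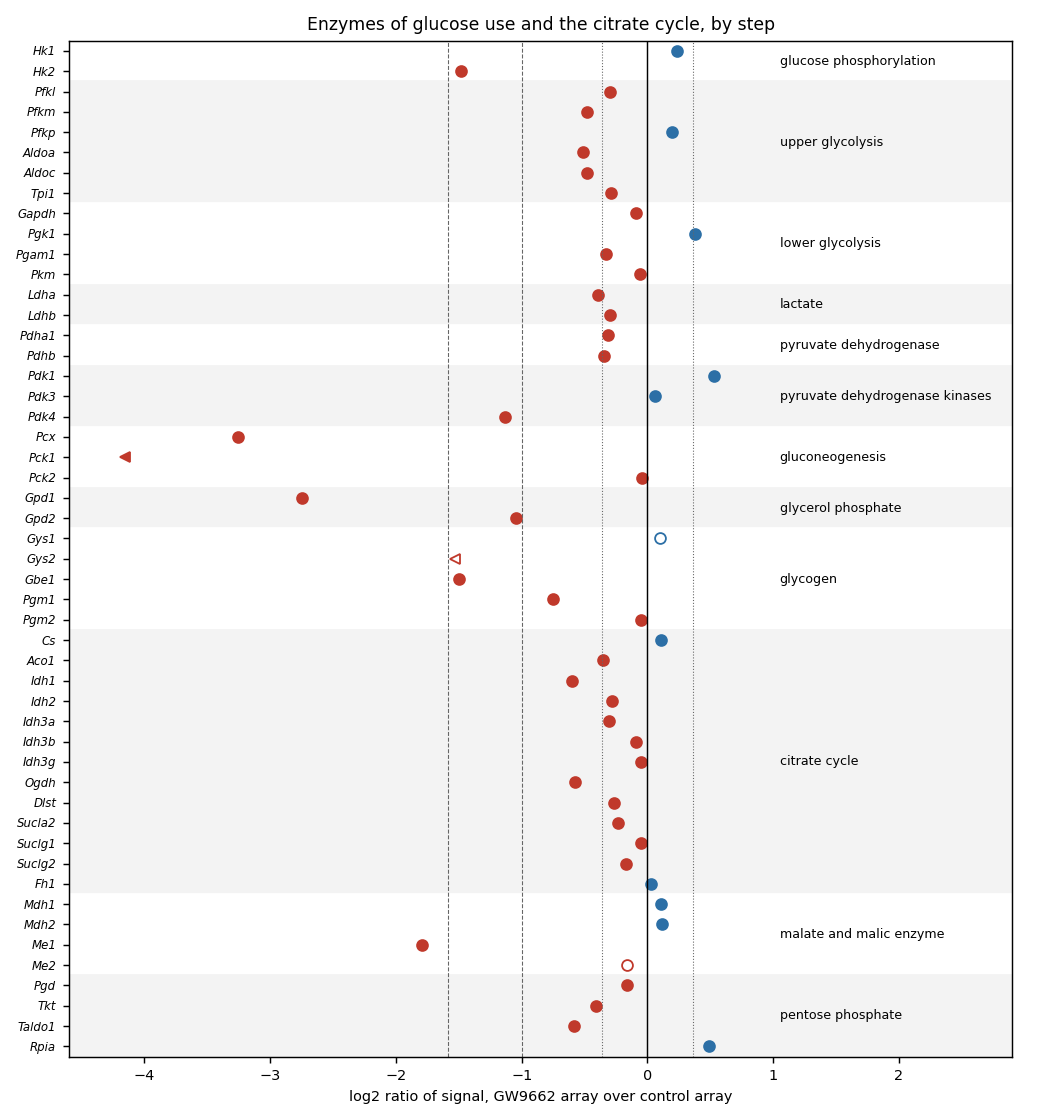
Log2 ratio of signal on the GW9662 array over the control array for each member that reached 100 on either array, at its brightest probe set, grouped by pathway step. Filled circles reached 300 on either array, open symbols did not, red is lower and blue is higher, triangles are bounds against a floor of 100, dotted lines mark the SD of 0.36 between probe sets and dashed lines mark 2-fold and 3-fold lower; Pck1, Pcx and Gpd1 stand farthest to the left and most steps of glycolysis and the citrate cycle lie near the dotted lines.

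Enzymes that lead from pyruvate toward glucose and glycerol phosphate had the lowest median log2 ratio of the branches at the brightest probe sets, -2.75 over 5 members. With the median over all probe sets of a gene it was -0.34. Glycogen at -1.13, the pentose phosphate pathway at -0.62 and pyruvate dehydrogenase with its kinases at -0.35 then lay lower. Pck1, the cytosolic PEP carboxykinase and the rate-limiting enzyme of gluconeogenesis, had signals of 1777 and 71.2, at least 17.8-fold lower with GW9662. Its other probe set lay at 0.3 and 6.8, within the range of the olfactory receptors. Pck2, the mitochondrial isozyme, had 739 and 718, and its log2 ratio of -0.04 differed from that of Pck1 by far more than the SD between probe sets. Its dim probe set had 68.5 and 116.3, and the median over both probe sets gave a log2 ratio of 0.36.

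Pcx, pyruvate carboxylase, which makes oxaloacetate from pyruvate in mitochondria, was 9.53-fold lower (1964 and 206). The array carries 4 further Pcx probe sets as built-in controls along the transcript. The one at the 3′ end was 10.3-fold lower (1335 and 129.9), a middle one had 127.8 and 6.0, at least 1.28-fold lower, and the other two were below the floor on both arrays (46.9 and 26.3 at the 5′ end, and 35.9 and 23.7). Fbp2, the muscle form of fructose bisphosphatase, was below the floor as given above.

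Gpd1, the cytosolic glycerol 3-phosphate dehydrogenase that makes glycerol phosphate from a glycolytic intermediate, had signals of 1235 and 183.8, 6.72-fold lower. Its second probe set was lower as well, at 180.1 and 36.9. The remaining ones stayed below the floor on both arrays (14.2 and 46.0, and 10.1 and 5.7). Gpd2, the mitochondrial partner that passes electrons from glycerol phosphate to the respiratory chain, had 507 and 245, 2.07-fold lower. It fell short of 2-fold when the arrays were quantile normalized.

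Of the gluconeogenic enzymes of liver and kidney, which were not members, G6pc, the glucose 6-phosphatase that releases free glucose, had signals of 7.0 and 5.9, and Fbp1, the liver fructose bisphosphatase, had 9.1 and 19.0. Both were as dim as the olfactory receptors on each array. Pklr, the liver form of pyruvate kinase, was at background too (12.4 and 13.7). Not all genes looked at here were dim. In the same liver and kidney list, Khk had 128.8 and 155.8, and Alb had 128.8 and 20.8. Of the other glucose 6-phosphatase genes looked at, G6pc3 had 354.4 and 246.4, and Slc37a4 had 278.7 and 237.8.

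Hexokinase, which commits glucose to the cell, was split between its isozymes. Hk2, the insulin-responsive form of muscle and fat that many tumors also express, had signals of 1083 and 387, 2.80-fold lower. Hk1, the widespread form, had 609 and 716 (1.18-fold higher), while its other probe set was below the floor (60.9 and 20.9). The log2 ratios of the isozymes were 1.72 apart. Hk1 and Hk2 were the only glucose kinases in the list. Of the others looked at, Hkdc1 was at background (9.7 and 6.6), and Adpgk was below the floor on both arrays (63.9 and 74.3).

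Between hexokinase and triose phosphate, 5 of 6 members were lower and 1 higher at the brightest probe sets, and 0 passed 1.5-fold there. Phosphofructokinase, the main control point of glycolysis, is encoded by 3 genes. Pfkl, the liver form, had 724 and 590.5, Pfkm, the muscle form, had 477 and 342, and Pfkp, the platelet form, had 771 and 881. Their log2 ratios were -0.29, -0.48 and 0.19, a difference of -0.67 between the muscle and the platelet form.

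Aldolase, which splits fructose bisphosphate, was read at 4 probe sets for Aldoa, the form of muscle and most tissues. Its brightest had 7451 and 5214, 1.43-fold lower, and the other three ranged from 1.40-fold to 1.65-fold lower, so that all 4 pointed the same way. Aldoc, the brain form, had 2967 and 2127 where it was brightest, 1.39-fold lower, and 107.5 and 115.8 at a dim one. Triose phosphate isomerase (Tpi1) had 6993 and 5722, 6151 and 5540.6, and 3730.3 and 4046 at its 3 probe sets, so its direction depended on the probe set.

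The steps from triose phosphate to pyruvate were close to level. Gapdh, which makes the first NADH of the pathway, was read only at the built-in control probe sets, at 8393 and 7892 (5′ end), 7691 and 7090.1 (middle), and 6952 and 6434 (3′ end), 1.06-fold to 1.08-fold lower. Pgk1, which makes the first ATP, had 5516.5 and 7161 where it was brightest, a log2 ratio of 0.38, but 5692 and 5684, and 6051 and 5524, at the others. Pgam1, the common phosphoglycerate mutase, had 3550.0 and 2832, and Pkm, pyruvate kinase of muscle and proliferating cells, had 2438 and 2338. Which splice form of Pkm the probe set reads was not analysed here.

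Ldha, the lactate dehydrogenase of muscle and of most tumors, had signals of 6431 and 4894, 1.31-fold lower. Ldhb, the heart form, was lower at 3 of its 4 probe sets, with 1875 and 1525 at the brightest and 1389 and 1469.5 at the one that was higher. The log2 ratio of Ldha minus that of Ldhb was -0.10, less than the SD between probe sets. Over the 14 members of glycolysis and lactate formation with a mean signal of at least 100, 11 were lower and 3 higher, with a median of -0.30. At probe sets whose names carry no suffix for shared or multiple transcripts the median was -0.09, over fewer members. Hk1, Pfkl, Aldoa, Tpi1, Pgam1, Ldha and Ldhb have no such probe set and dropped out, so the medians cover different genes.

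**Figure D2:**
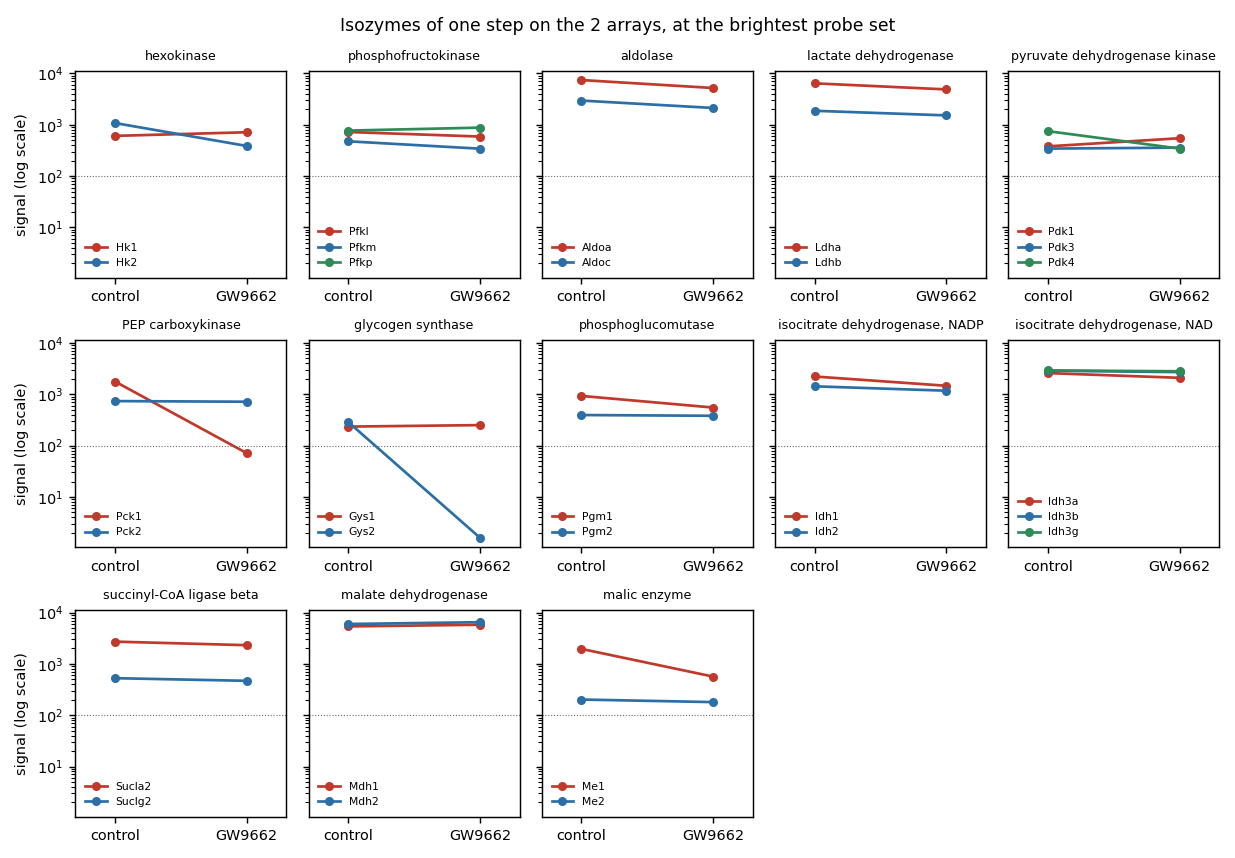
Signal (log scale) of isozymes of the same step on the control and GW9662 arrays, each at its brightest probe set, 1 panel per enzyme and 1 line per gene. The dotted line is the floor of 100, below which values have no order, and only slopes can be compared, since different probe sets have different brightness. The lines of Hk2, Pck1, Gys2, Pdk4 and Me1 drop while those of Hk1, Pck2, Gys1, Pdk3 and Me2 stay near level.

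At the entry to mitochondria, pyruvate dehydrogenase was little different at its brightest probe sets. Pdha1, the E1 alpha subunit, had 2957 and 2384.5, 1.24-fold lower, and a dimmer probe set of the same gene had 833 and 379, 2.20-fold lower. Pdhb, the E1 beta subunit, had 2624 and 2067, 1.27-fold lower.

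The kinases that switch pyruvate dehydrogenase off differed from each other. Pdk4, the form induced by fasting and by fatty acids and a known PPAR target, had 753 and 344, 2.19-fold lower. Pdk1, a form induced by hypoxia, had 379.8 and 547.5, 1.44-fold higher, but its second probe set had 187.6 and 158.5. Pdk3 was level at 344 and 359, and Pdk2 was below the floor on both arrays. The log2 ratios of Pdk1 and Pdk4 were 1.66 apart at their brightest probe sets.

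Of the 5 glycogen members, Gbe1 alone both reached a signal of 300 and passed 2-fold, and Gys1 and Pgm2 were close to level. Gys2, the glycogen synthase of liver and fat, had signals of 289.3 and 1.6, at least 2.89-fold lower with GW9662, and missed the minimum of 300. In the study's own list its control signal is above 300. Gys1, the form of muscle and most other tissues, had 235.1 and 251.4, 1.07-fold higher. Gbe1, the branching enzyme, had 427 and 151, 2.83-fold lower.

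Phosphoglucomutase links glucose 6-phosphate to glycogen. Its main gene, Pgm1, had 932 and 553, 1.69-fold lower, and Pgm2 had 395 and 382. These 2 symbols were exchanged between the genes in older naming, and they are used here as the current gene identifiers give them. The median over the 5 glycogen members was -0.75.

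The citrate cycle had the narrowest range of log2 ratios among the branches at the brightest probe sets. All 13 members reached a signal of 300, 11 were lower and 2 higher, with a median log2 ratio of -0.23 and a range from -0.60 to 0.11, and 0 passed 2-fold at the brightest probe set. Cs, citrate synthase, which starts the cycle, was 1.08-fold higher where it was brightest (2598 and 2804) and 1.44-fold and 1.45-fold lower at the others (2936 and 2033, and 1077 and 742.5). Fh1, fumarase, was level at 2753 and 2811.

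NAD-dependent isocitrate dehydrogenase, which turns isocitrate to 2-oxoglutarate, has 3 kinds of subunit. Idh3b had 2892 and 2711 and Idh3g had 2918.5 and 2815 at their brightest probe sets. The catalytic subunit Idh3a had 2594 and 2098 at its brightest, 1.24-fold lower, 380.2 and 185.6 at a dimmer one, 2.05-fold lower, and 215.3 and 168.5 at the dimmest. With the median signal over probe sets on each array, Idh3a was among the members at least 2-fold lower, at a log2 ratio of -1.03.

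Idh1, the cytosolic enzyme that makes NADPH from isocitrate, had 2227 and 1468, 1.52-fold lower, and its second probe set was 2.37-fold lower (1160.4 and 489.9). Idh2, its mitochondrial partner, had 1434 and 1177. Aco1, the cytosolic aconitase that also senses iron, had 3471 and 2721, 1.28-fold lower, and 649 and 382 at a dimmer probe set.

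Ogdh, the E1 subunit of 2-oxoglutarate dehydrogenase, had 977 and 656, 1.49-fold lower, and its E2 subunit Dlst had 1454 and 1212. Succinyl-CoA ligase, the step that makes ATP or GTP in the cycle, was close to level, with 2713 and 2312 for Sucla2, 2253 and 2177 for Suclg1, and 526 and 467 for Suclg2.

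Of the enzymes that handle malate, Me1, the cytosolic malic enzyme that feeds NADPH to fatty acid synthesis, had 1958 and 564.8, 3.47-fold lower, and its other probe set was lower to a like extent (1661 and 459). Me2, the mitochondrial malic enzyme, had 201.8 and 179.9, and the log2 ratio of Me1 minus that of Me2 was -1.63. The malate dehydrogenases were nearly level, with 5373 and 5788 for the cytosolic Mdh1 and 5984.5 and 6487 for the mitochondrial Mdh2, and both were slightly lower at other probe sets.

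The measured members of the pentose phosphate pathway were modestly lower, apart from Rpia. Of 5 other genes of this pathway with a mean signal of at least 100, 3 were lower and 2 higher. Tkt, transketolase, had 9101 and 6857 at one probe set and 3601 and 1671 at a dimmer one, 1.33-fold and 2.15-fold lower. Taldo1, transaldolase, had 3584 and 2384, a log2 ratio of -0.59. Pgd, which makes NADPH at the second oxidative step, was lower at all 4 of its probe sets, from 1.12-fold (3616 and 3223) to 1.96-fold (2968 and 1515). Rpia, ribose 5-phosphate isomerase, had 865 and 1213, 1.40-fold higher. The median over the 4 measured members was -0.29, or -0.62 when each gene was read as the median over its probe sets.

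By compartment, the 27 cytosolic members with a mean signal of at least 100 had a median log2 ratio of -0.35, with 22 lower and 5 higher. Among the 20 mitochondrial members the median was -0.20, and 16 were lower and 4 higher. The members at least 2-fold lower came from both, with Pck1, Gpd1, Gbe1 and Me1 in the cytosol, Pcx, Gpd2 and Pdk4 in mitochondria, and Hk2 in the cytosol and on the outer surface of mitochondria.

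How far probe sets of a gene went together could be seen for 22 members in which 2 or more probe sets had a mean signal of 100. In 14 of these all such probe sets pointed the same way, always lower. The share over all genes with several such probe sets was not computed. At Gapdh, Idh3b and Idh3g each of these log2 ratios lay within the SD between probe sets. In the other 8 members (Aldoc, Cs, Ldhb, Mdh1, Mdh2, Pdk1, Pgk1 and Tpi1) the probe sets did not all point the same way. The log2 ratios of the brightest probe sets of these 8 lay between -0.48 and 0.53. Read at any probe set with a signal of at least 300, 12 of 47 members were 2-fold lower or more with GW9662, against 5.63% of all genes read this way, and 0 were 2-fold higher, against 1.68%. The 4 that were so at a dimmer probe set alone were Idh1, Idh3a, Pdha1 and Tkt.

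**Figure D3:**
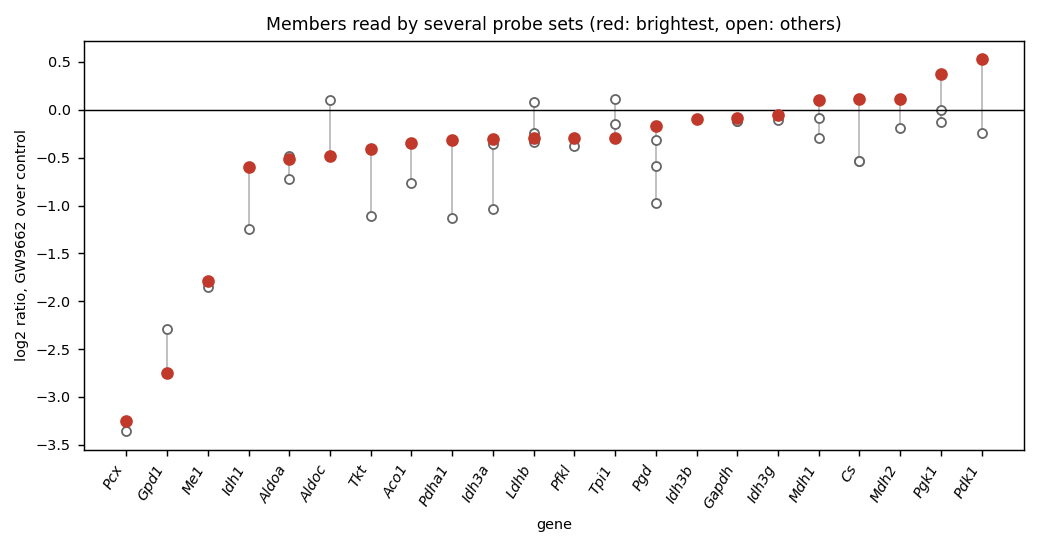
Log2 ratio of GW9662 over control for each probe set of mean signal 100 or more, in the 22 members with at least 2 such probe sets, ordered by the ratio of the brightest. Red points are the brightest probe sets, open points the others and gray lines their range; the probe sets of Pcx, Gpd1 and Me1 all lie far below 0, while those of Pdk1, Pgk1, Cs and Mdh1 fall on both sides of 0.

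Other enzymes and carriers of the same pathways, 70 genes chosen by their place in the pathways, were also mostly lower. Of the 48 measured, 33 had a mean signal of at least 100, and 24 of these were lower and 9 higher, with a median log2 ratio of -0.36, where 47.1% of all genes were lower. Of the 29 that reached a signal of 300, 4 were at least 2-fold lower, against 4.67% of all genes, and 0 were 2-fold higher, against 1.02%. Pygl, the liver glycogen phosphorylase, had 1555 and 231, 6.73-fold lower, and Ppp1r3c, which targets protein phosphatase to glycogen, had 710.1 and 185, 3.84-fold lower. Slc25a10, the mitochondrial dicarboxylate carrier, had 993 and 378, 2.63-fold lower. H6pd, which starts a pentose phosphate route inside the endoplasmic reticulum, had 755 and 324, 2.33-fold lower.

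The following values were singled out after they were seen. Mpc1, a subunit of the mitochondrial pyruvate carrier, had 3280.4 and 1886, 1.74-fold lower, Dld, the E3 subunit shared by the 2-oxo acid dehydrogenases, had 727 and 435, 1.67-fold lower, and Gyg, the primer of glycogen, had 606 and 344, 1.76-fold lower. Subunits of succinate dehydrogenase went both ways, with 2466 and 2014 for Sdha, 3967 and 4132 for Sdhb, 1631 and 1153 for Sdhc and 2005 and 2293 for Sdhd.

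Markers of fat and muscle were mostly far lower on the GW9662 array, while most members differed less than 2-fold. All 9 measured adipocyte markers were at least 3-fold lower, with summed signals of 53833 and 6570, and Lep, Cidec and Adig were below the floor on the GW9662 array. The 12 skeletal muscle markers with a mean signal of at least 100 were all lower, and the sum over the 14 measured went from 13061 to 1455. The 5 measured brown adipocyte markers summed to 2184 and 220.2, mostly from Cox8b (1136 and 9.1) and Cidea (710.2 and 45.3). Of the others, Cox7a1 was 1.54-fold lower (232.2 and 150.3). Ucp1 (76.2 and 1.9) and Elovl3 (29.3 and 13.6) were below the floor on both arrays. The 6 endothelial markers summed to 2847 and 1630.5. The 8 epithelial markers summed to 43019 and 43755 with 4 lower and 4 higher, and the 6 macrophage markers to 14513 and 12894. No marker was listed at 0.

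Of the muscle isozymes of the pathway, which were not members, Eno3 had 571 and 137, 4.18-fold lower. Pgam2 had 248 and 8.0, at least 2.48-fold lower, and Pygm had 73.2 and 8.0, below the floor on both arrays. In bulk RNA, fewer fat or muscle cells in a tumor and less RNA of a gene in each cell cannot be told apart, and the part of fat and muscle cells in the lower signals of the members was not tested.

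**Figure D4:**
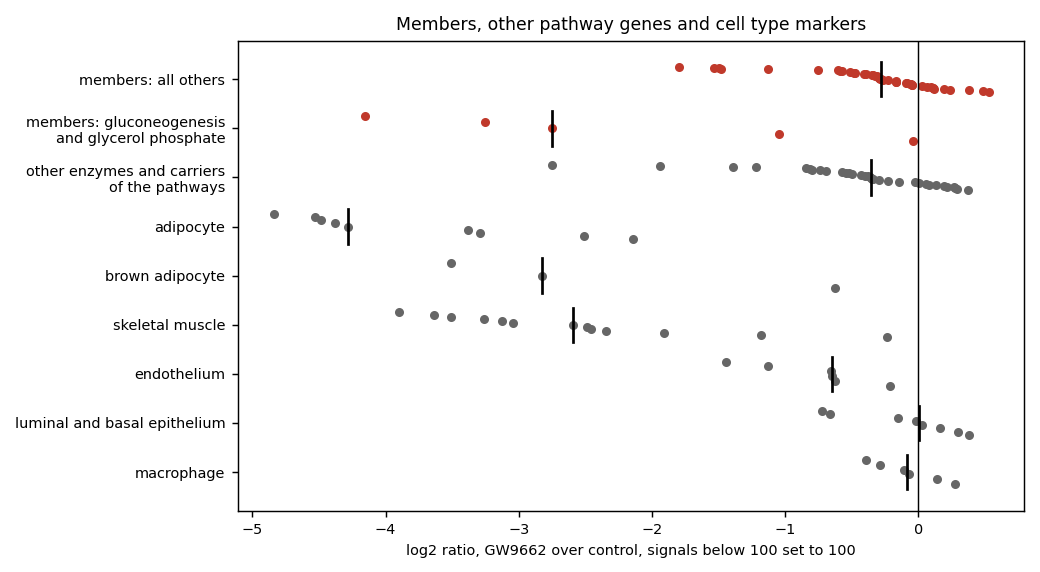
Log2 ratio of GW9662 over control, with signals below 100 set to 100, for the members (red), for other enzymes and carriers of the same pathways and for markers of cell types (gray), for genes that reached 100 on either array. Each point is 1 gene at its brightest probe set and black bars are medians, which were -0.28 for the members outside gluconeogenesis and glycerol phosphate, -2.75 for those within it, -4.29 for adipocyte markers, -2.59 for skeletal muscle markers and 0.00 for epithelial markers.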

How the data were processed

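Per the labels and methods, the authors pooled RNA of 5 mice per diet, labelled it with biotin and hybridized it to Affymetrix mouse arrays. They deposited 1 linear signal intensity per probe set. How signals were calculated and scaled is not given in the sources used here, nor are presence calls. The 2% trimmed mean was 500.2 on both arrays, and signals were used as deposited.

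Of 22690 probe sets, 20393 were annotated to 1 gene, 691 to several, which were not used, and 1606 were unnamed here. Current symbols came from RefSeq (GRCm38.p6), matched on gene identifiers. The probe set brightest on average stood for its gene. Medians took genes with a mean signal of at least 100, and signals of 0 were read as 0.1. Every member was counted and described, with full values for those at least 1.5-fold apart, their isozymes and the brightest of each step. The members, lists and markers were chosen with earlier results of these data known. Promoter letters came from RefSeq. Protein identity between isozymes was not analysed here. Having only 2 arrays limits precision throughout. The counting code was also run on simulated data. That run cannot show how mice or tumors vary, and its outcome was not used to judge any count given here. Alternatives covered centring, quantile normalization, the choice of probe set, floors and signal minimums. Calculations used pandas 2.3.3 and numpy 2.4.6 in Python 3.11.15, and plots matplotlib 3.10.9.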

Additional observations from a re-analysis of the deposited data

How the results depend on the processing

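No paired analysis was possible because each diet has 1 pooled array. Quantile normalization, centring, floors and other signal minimums left the counts of members at least 3-fold lower at 4 or 5 and at least 2-fold lower at 7 to 9, with 0 higher throughout. Gys2 joined at lower signal minimums and Gpd2 fell under 2-fold with quantile normalization. With the median over all probe sets of a gene, 1 member (Me1) that reached 300 was at least 3-fold lower and 6 were at least 2-fold lower. Pcx, at a log2 ratio of -2.28, was past 3-fold but missed the signal of 300. The gluconeogenesis and glycerol phosphate median was -0.34 and the glycogen median was -1.13. This setting takes the median signal on each array, which lets probe sets at background in and can draw on different probe sets on each array. It moved gluconeogenesis and glycerol phosphate from the lowest median to one above glycogen, the pentose phosphate pathway and pyruvate dehydrogenase with its kinases. It also brought Idh3a (-1.03) past 2-fold. When only probe sets of mean signal 100 or more entered that median, an alternative chosen after seeing the data, 4 were 3-fold lower and the gluconeogenesis and glycerol phosphate median was -2.52. Without a minimum of the mean signal that median was -1.98, since Fbp2, below the floor, then entered. Of 64 values of the medians under alternatives, 61 moved by less than the SD of 0.36 between probe sets. The malate and malic enzyme median, -0.03, was 0.02 with quantile normalization.

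Pgk1 turned from higher to lower with the median over probe sets, all or bright (-0.00203 in both), with the probe set brightest on the control array (-0.13) and with probe sets without a suffix (-0.13). With the last of these, Aldoc was higher (0.11) and Pdk1 lower (-0.24), and the 36 members with such a probe set included Tkt but not Gbe1 at 2-fold. The cause of these turns was not tested.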

Other observations

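Regulators of these pathways were little different, with some exceptions. Of 11 listed, 10 were measured and 9 had a mean signal of at least 100, 5 lower and 4 higher, with a median log2 ratio of -0.23. Hif1a, the oxygen-regulated activator of glycolytic genes, had 2392 (control) and 2462 (GW9662), and Myc had 994 and 845. Esrra, an orphan receptor that drives mitochondrial genes, had 404 and 408. Srebf1, the regulator of fatty acid synthesis genes, had 3532 and 1801, 1.96-fold lower. Mlxipl, the glucose-sensing factor ChREBP of liver and fat, had 226.4 and 43.5, at least 2.26-fold lower, while its relative Mlxip had 507 and 563. Pfkfb3, which makes the activator of phosphofructokinase, had 497 and 335, 1.49-fold lower, and Slc16a1, a lactate and pyruvate transporter, had 1676 and 936, 1.79-fold lower. These genes were singled out after their values were seen.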
